A study of Mus musculus with 4 samples.

Results

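Cholesterol and fatty acid synthesis was followed in mouse B cells through 31 genes that encode its enzymes and regulators. Every probe set annotated on the array to exactly 1 of these symbols was taken, which gave 70 of the 45101 probe sets for 30 genes. Acat2, a cytosolic thiolase, had no such probe set and was not analysed here.

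The arrays held RNA of sorted B cells from C57BL6/J wild type mice, 1 array per group, each from a pool of 3 to 5 mice. Germinal centre (GC) B cells, sorted as B220+PNA+Fas+, and naive B cells, sorted as B220+PNA-Fas-, were taken from Peyer's patches (PP) of mice given no treatment. The same 2 populations were taken from peripheral lymph nodes (pLN) of mice immunised with TNP-KLH in incomplete Freund's adjuvant. GC cells are the dividing, antibody-mutating B cells of an immune response, and naive cells are their resting counterparts. Immunisation and tissue cannot be told apart in PP against pLN, and pooling removed the variation between mice.

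Cholesterol is built from acetyl-CoA through mevalonate, isoprenoids, squalene and lanosterol. Fatty acids are built from the same precursor through malonyl-CoA, then lengthened and desaturated. The transcription factors SREBP1 and SREBP2, encoded by Srebf1 and Srebf2, switch on both branches when membrane sterol is low. SCAP carries them out of the endoplasmic reticulum and INSIG1 holds them back. Dividing cells need both products for new membrane.

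Signals are given on a scale that puts the trimmed mean of every array at 500, and log2 folds are differences of log2(signal + 13.3). A probe set counted as detected above a level taken on each array from genes of other tissues, 57.8 on GC PP, 150 on naive PP, 29 on GC pLN and 62.4 on naive pLN. Of the 70 probe sets, 62 were detected on GC PP, 45 on naive PP, 64 on GC pLN and 52 on naive pLN. The levels differ between arrays, so a low naive PP signal is bounded more loosely than a low GC pLN signal.

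The naive arrays carried a strong 3' bias. The 3' to 5' signal ratio of the Gapdh control was 1.67 on GC PP and 1.48 on GC pLN, against 96.4 on naive PP and 18.7 on naive pLN. The Actb control gave 1.82 and 1.52 on the GC arrays, against 67.2 and 12.2 on the naive arrays in the same order of tissues. The 18 hybridisation spike-in probe sets had median signals of 3964 on GC PP and 4092 on GC pLN, against 15677 on naive PP and 7500 on naive pLN. RNA quality, spike-in level and cell type cannot be told apart in the GC and naive values below. Marker genes followed the sort: summed GC marker signals were 30906 and 27630 in GC cells of PP and pLN, against 3967 and 7506 in naive cells. Summed naive marker signals were 5128 and 10708 in GC cells, against 41143 and 37133 in naive cells. In such bulk samples, fewer cells of a type and less RNA per cell cannot be told apart.

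The first comparison asked whether the lipid synthesis genes differ between GC and naive B cells. As a group they did not stand apart from the array. Of the 62 probe sets tested, 21 were higher and 10 lower in GC cells, or 33.9% and 16.1%, and 31 were not called. Calls in either direction made up 49.2% of all probe sets tested. Over all 23352 probe sets tested, 32.8% were called higher and 16.3% lower (limma, tissue as a block, adjusted p under 0.05 over all probe sets). The median log2 fold of the lipid probe sets was 0.30, against 0.42 over all probe sets. Behind these even totals stood single probe sets with folds from -2.49 (Lss) to 5.02 (Idi1).

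Each p-value rests on 1 fold per tissue, with 1 residual degree of freedom, and mostly on a variance that limma shares over all probe sets (37.6 prior degrees of freedom). A probe set can therefore be called although its tissues disagree, and variation between mice is not covered. Among the 45 probe sets detected on all 4 arrays, 9 were called higher and 13 lower, against 21.6% and 26% of 14630 such probe sets on the whole array. Leaving out 1 GC array moved a bright fold such as that of Srebf1 little, to -2.30 without GC PP and -2.21 without GC pLN, against -2.26. The dim Fads2 probe set 1449325_at moved more, to 1.32 and 2.48, against 1.90. Fewer probe sets were then called. Such a fit cannot keep the tissue block, and the lone GC array is assumed to vary like the naive pair. A call given below as lost without a GC array therefore need not mean a changed fold. Without naive pLN 22 were higher and 18 lower.

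**Figure D1:**
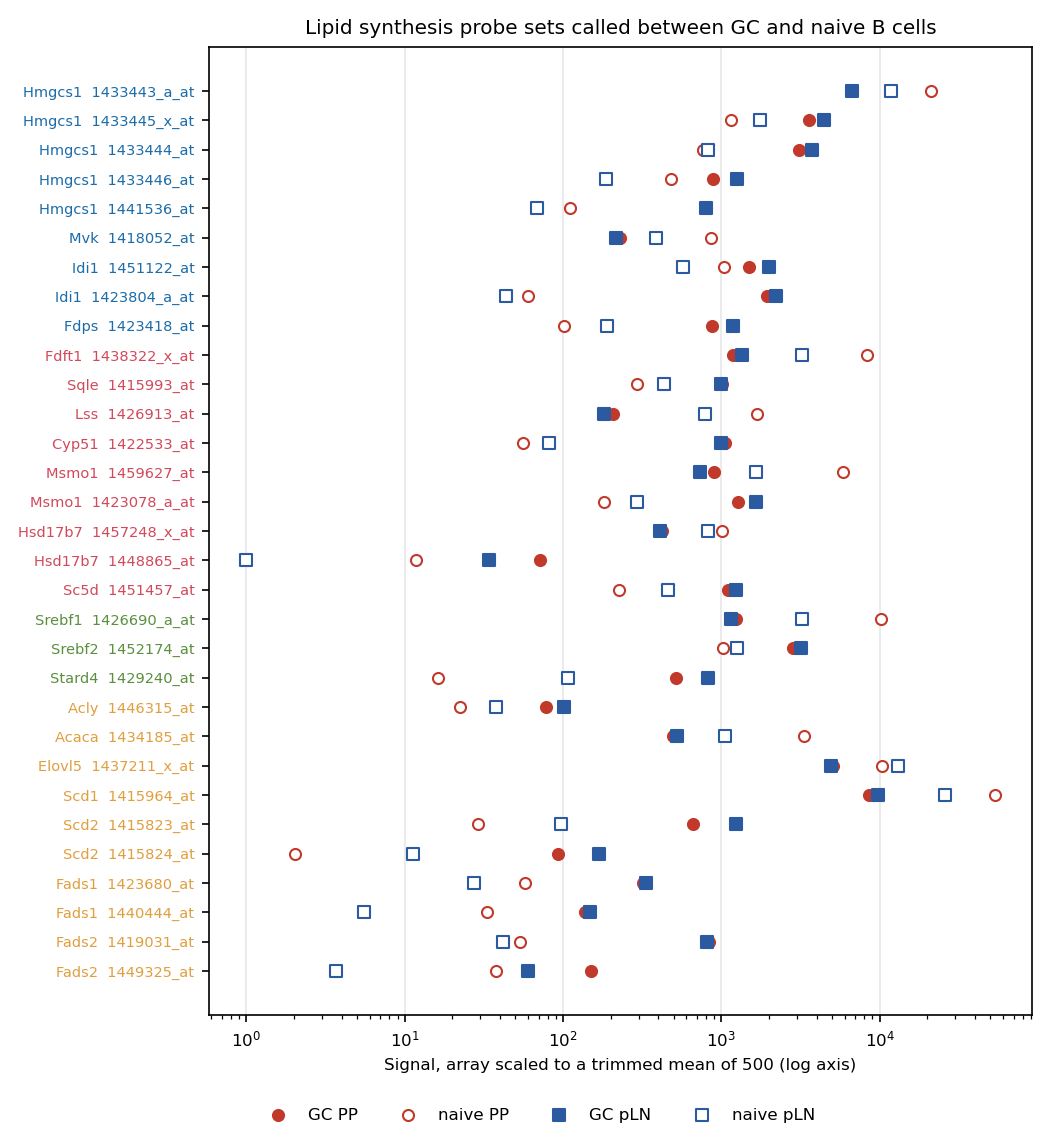
Signals of the 31 called lipid synthesis probe sets on the 4 arrays (log axis), grouped by label colour into mevalonate steps, squalene onward, regulators and transport, and fatty acid synthesis. Filled symbols are GC cells, open symbols naive cells, circles PP and squares pLN. GC signals span 34 (Hsd17b7) to 9743 (Scd1), while naive signals span 1 (Hsd17b7) to 53139 (Scd1).

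The early, mevalonate part of the pathway held the largest fold and also opposite calls within 1 gene. Its 13 tested probe sets gave 7 higher and 2 lower calls (median log2 fold 1.16), against 32.8% and 16.3% of all probe sets tested. However, 4 of the 7 belonged to Hmgcs1, and several probe sets of a gene are not independent. Idi1 encodes the isomerase that interconverts the 5-carbon isoprenoid units. Its probe set 1423804_a_at read 1954 in GC cells and 60.2 in naive cells of PP, and 2226 in GC cells and 43.7 in naive cells of pLN. Both naive signals lay under the detection level, so the GC signal was at least 21.5-fold higher over the 2 tissues (log2 fold 5.02 ± 0.45 SE, limma adjusted p = 2.67e-11). Like every GC and naive ratio below, this is a geometric mean over PP and pLN, and 1 tissue alone can lie under it. The brighter probe set of Idi1, 1451122_at, read 1494 in GC cells and 1041 in naive cells of PP, and 2008 and 568 in pLN. Its log2 fold was only 1.16 ± 0.43 (limma adjusted p = 0.0245), and the call was lost without GC PP, GC pLN or naive pLN, without the tissue block, and with quantile or cyclic loess normalization.

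Fdps makes farnesyl diphosphate, the branch point to sterols and to protein prenylation. It read 871 in GC cells and 102 in naive cells of PP, and 1191 in GC cells and 189 in naive cells of pLN. GC cells were higher in both tissues, by a log2 fold of 2.76 ± 0.44 (limma adjusted p = 3.62e-06), or 6.05-fold with the dim naive PP signal set to the level. Its other probe set was under the level on all 4 arrays.

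Hmgcs1 encodes the synthase that makes HMG-CoA, the substrate of the rate-limiting step. Its brightest probe set, 1433443_a_at, read 6581 in GC cells and 20943 in naive cells of PP, and 6706 and 11753 in pLN, and was called lower (-1.24 ± 0.48, limma adjusted p = 0.0306). The other 4 were all called higher, by log2 folds of 1.48 (1433445_x_at), 1.77 (1433446_at), 2.08 (1433444_at) and 3.00 (1441536_at, 7.84-fold with the dim naive PP signal at the level). Probe set 1433444_at read 3094 in GC cells and 766 in naive cells of PP, and 3735 and 817 in pLN. The lower call turned to 0.19 with spike-in scaling and was lost without either GC array, without the filter on dim probe sets, and with quantile (-0.34) or cyclic loess normalization (-0.27). Without GC pLN the calls of 1433444_at, 1433445_x_at and 1433446_at were lost, the last 2 also without GC PP, and 1441536_at kept its call in every alternative that tested it. Hmgcs1 as a gene is given no direction.

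Mvk, mevalonate kinase, was called lower by 1 of 2 probe sets (1418052_at, -1.32 ± 0.45, limma adjusted p = 0.0144). That probe set read 229 in GC cells and 859 in naive cells of PP, and 215 and 385 in pLN. The call was lost without GC PP, GC pLN or naive PP and without the tissue block, and turned to 0.05 with spike-in scaling. The kinase and decarboxylase that follow, Pmvk and Mvd, were not called, with log2 folds of -0.68 for Pmvk and of -0.65 and -0.73 for Mvd. Quantile and cyclic loess normalization called both Mvd probe sets lower, at -1.23 and -1.35 by quantile and -1.20 and -1.37 by loess, and the second Mvk probe set as well (-1.40 and -1.43).

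Promoters of 4 genes are shown because SREBPs act there, together with NF-Y at CCAAT boxes. Each line gives the 150 bases before the RefSeq start site (GRCm38.p6), 5′ to 3′ on the gene's strand, with matches to the searched motifs in capitals. Hmgcs1 (chr13:119690201-119690350, plus strand) holds the only sterol regulatory element match among them, and Idi1 (chr13:8885456-8885605, plus strand) and Msmo1 (chr8:64733579-64733728, minus strand) hold 2 CCAAT boxes each. Fads2 (chr19:10101504-10101653, minus strand) has no match in the window and is shown for contrast.
Hmgcs1: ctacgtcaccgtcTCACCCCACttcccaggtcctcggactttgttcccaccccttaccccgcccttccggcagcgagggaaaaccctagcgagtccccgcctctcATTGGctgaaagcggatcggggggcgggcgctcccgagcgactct
Idi1: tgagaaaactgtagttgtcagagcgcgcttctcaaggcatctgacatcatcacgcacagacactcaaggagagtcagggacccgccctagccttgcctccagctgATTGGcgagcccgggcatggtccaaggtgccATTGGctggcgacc
Msmo1: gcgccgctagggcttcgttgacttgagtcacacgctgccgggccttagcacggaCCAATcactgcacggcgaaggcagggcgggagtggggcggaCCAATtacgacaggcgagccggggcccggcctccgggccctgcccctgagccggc
Fads2: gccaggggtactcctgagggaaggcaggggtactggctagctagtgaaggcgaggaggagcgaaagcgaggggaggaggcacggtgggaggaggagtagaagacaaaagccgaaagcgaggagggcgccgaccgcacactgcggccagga

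Of the 31 genes, 24 had a RefSeq promoter window of 250 bases before to 50 after the start, Acat2 included. CCAAT, on either strand, was found for 19 of the 24 genes (79.2%), against 41.1% of all 27025 genes with a window. The E-box CACGTG was found for 6 of 24 genes (25%), against 8.09% of all genes. The sterol regulatory element letters TCACNCCAC, on either strand, were found for 1 gene, Hmgcs1, or 4.17%, against 1.44% of all. No 2 matches overlap in the windows shown. A match is a description of the window and not a shown binding site, and genes with several windows had more chances to match.

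From squalene onward the calls split almost evenly. Of 18 tested probe sets for 10 genes, 5 were higher and 4 lower (median log2 fold 0.06), against 32.8% and 16.3% of all probe sets tested. Sqle, squalene epoxidase, a control point of the late pathway, had 1 probe set. It read 1010 in GC cells and 295 in naive cells of PP, and 995 in GC cells and 432 in naive cells of pLN (1.45 ± 0.43, limma adjusted p = 0.00524). The Sqle call was lost with quantile normalization (0.97) and without either GC array (1.44 without GC PP and 1.46 without GC pLN). Sc5d, a sterol desaturase, was higher by 1451457_at (1.80 ± 0.43, limma adjusted p = 7.87e-04), which read 1095 in GC cells and 227 in naive cells of PP, and 1238 and 463 in pLN. A dimmer Sc5d probe set stood at 0.52 and was not called, and another was not tested. The Sc5d call was lost without either GC array.

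Cyp51, the lanosterol demethylase, was called by 1 of its 3 probe sets. Probe set 1422533_at read 1049 in GC cells and 56.2 in naive cells of PP, and 994 and 81.2 in pLN. It was called higher (3.67 ± 0.46, limma adjusted p = 3.60e-08), 9.25-fold with the naive PP signal at the level. The brightest probe set, 1450646_at, read 2619 in GC cells and 2314 in naive cells of PP, and 2412 and 1759 in pLN, and was not called (0.31). The remaining one, 1422534_at, read 90 in GC cells and 310 in naive cells of PP, and 93.1 and 123 in pLN, and was not called, but quantile and cyclic loess normalization called it lower (-1.53 and -1.57), as did leaving out naive pLN (-1.62).

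Msmo1, the sterol methyl oxidase, was called in both directions. Probe set 1423078_a_at, detected on all 4 arrays, read 1269 in GC cells and 182 in naive cells of PP, and 1643 and 291 in pLN (2.58 ± 0.43, limma adjusted p = 6.40e-06). Probe set 1459627_at, the brighter one, read 898 in GC cells and 5838 in naive cells of PP, and 730 and 1663 in pLN (-1.93 ± 0.44, limma adjusted p = 4.20e-04). Hsd17b7, a reductase of the same stage, was also split. Probe set 1457248_x_at read 423 in GC cells and 1005 in naive cells of PP, and 410 and 825 in pLN (-1.10). The dim probe set 1448865_at was called at 1.74, but its signals of 72 and 34 in GC cells lay under the levels of the naive arrays, and its direction turned with dim signals set to the level (-0.81). The lower calls of Msmo1 and Hsd17b7 were lost without either GC array and with spike-in scaling, where Hsd17b7 1457248_x_at turned to 0.29.

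Fdft1, squalene synthase, was lower by its brightest probe set, 1438322_x_at (-2.01 ± 0.44, limma adjusted p = 3.02e-04). It read 1192 in GC cells and 8254 in naive cells of PP, and 1346 in GC cells and 3219 in naive cells of pLN. The call was lost without either GC array and with spike-in scaling. A second probe set stood at 0.73, not called, and 2 others were not tested. Lss, lanosterol synthase, was 5.95-fold lower in GC cells by 1426913_at (-2.49 ± 0.44, limma adjusted p = 1.56e-05), with 207 in GC cells and 1673 in naive cells of PP, and 180 and 789 in pLN. That call was lost with spike-in scaling (-1.11). Its brightest probe set, 1420013_s_at, read 704 in GC cells and 1942 in naive cells of PP, and 637 and 816 in pLN, and was not called (-0.90), but was called lower by quantile (-1.24) and cyclic loess normalization (-1.20). Dhcr7, Ebp and Nsdhl, which act late in the pathway, were not called, with log2 folds of 0.28, -0.25 and -0.17.

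Among the regulators, the genes of the SREBP pair moved in opposite directions. Srebf1, which favours fatty acid synthesis, was lower by its 1 probe set, which read 1231 in GC cells and 10140 in naive cells of PP, and 1152 in GC cells and 3243 in naive cells of pLN. That was 4.81-fold lower (-2.26 ± 0.44, limma adjusted p = 7.55e-05). Srebf2, which favours cholesterol synthesis, read 2812 in GC cells and 1030 in naive cells of PP, and 3203 in GC cells and 1260 in naive cells of pLN by 1452174_at, or 2.64-fold higher (1.39 ± 0.42, limma adjusted p = 0.00635). Its second probe set had a log2 fold of 1.00 and just missed the threshold (limma adjusted p = 0.0504). Both calls were lost without either GC array, and the Srebf1 call was also lost when arrays were scaled to the spike-ins (-0.83).

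Insig1, a target and brake of SREBP, read 5456 in GC cells and 3559 in naive cells of PP, and 5319 and 2758 in pLN, and was not called (0.78, limma adjusted p = 0.138). It was called higher by quantile (1.16) and cyclic loess normalization (1.24), with spike-in scaling (2.20), and without either naive array. The Scap probe sets stood at -0.96 and 1.05, neither called, but the brighter one was called lower by quantile (-1.13) and cyclic loess normalization (-1.02) and in several other settings. Stard4, a cytosolic sterol carrier, was higher by 1429240_at (3.47 ± 0.48, limma adjusted p = 3.26e-07). That probe set read 519 in GC cells and 16.2 in naive cells of PP, and 823 and 108 in pLN, 5.12-fold with the naive PP signal at the level. Its brightest probe set, 1455011_at, read 855 in GC cells and 598 in naive cells of PP, and 1345 and 654 in pLN, and was not called (0.77). Another Stard4 probe set stood at -0.05.

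In fatty acid synthesis the higher calls fell mostly on the desaturases Fads1, Fads2 and Scd2, and the lower calls on Acaca, Elovl5 and Scd1. Of 22 tested probe sets, 7 were higher and 3 lower (median log2 fold 0.04), against 32.8% and 16.3% of all probe sets tested. Fads2, the delta-6 desaturase of polyunsaturated fatty acids, read 837 in GC cells and 53.1 in naive cells of PP, and 814 in GC cells and 42 in naive cells of pLN by 1419031_at. Both naive signals lay under the level, so GC cells were at least 8.53-fold higher over the 2 tissues (3.79 ± 0.47, limma adjusted p = 3.04e-08). Fads1, the delta-5 desaturase, read 322 in GC cells and 57.8 in naive cells of PP, and 332 and 27.5 in pLN by 1423680_at, at least 3.38-fold higher (2.66 ± 0.50, limma adjusted p = 3.78e-05). The second Fads1 probe set was called at 2.40, at least 1.47-fold, and lost its call without either GC array and with dim signals set to the level (0.48). Of the other Fads2 probe sets, 1 was called at 1.90 with no measurable fold over the naive levels, and 1 was not called (0.99).

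The stearoyl-CoA desaturases, which make monounsaturated fatty acids, differed from each other. Scd1 had the highest naive signal of all these probe sets, with 8521 in GC cells and 53139 in naive cells of PP, and 9743 in GC cells and 26008 in naive cells of pLN by 1415964_at. That was 4.08-fold lower in GC cells (-2.03 ± 0.52, limma adjusted p = 0.00143), and its second probe set stood at -0.94 (limma adjusted p = 0.0615), called lower by quantile (-1.27) and cyclic loess normalization (-1.13). The Scd1 call was lost without either GC array, after cyclic loess and with spike-in scaling. Scd2 was higher by 1415823_at, which read 660 in GC cells and 28.9 in naive cells of PP, and 1234 and 96.5 in pLN (3.75 ± 0.46, limma adjusted p = 3.22e-08), or 7.5-fold with the dim naive PP signal at the level. A second Scd2 probe set was called at 2.84, at least 1.29-fold, and lost its call with dim signals set to the level (0.32). The brightest Scd2 probe set, 1415822_at, read 2175 in GC cells and 2584 in naive cells of PP, and 3882 and 5499 in pLN, and was not called (-0.37).

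Acaca encodes the carboxylase that commits acetyl-CoA to fatty acids. Its probe set 1434185_at read 492 in GC cells and 3318 in naive cells of PP, and 527 in GC cells and 1057 in naive cells of pLN, 3.68-fold lower (-1.85 ± 0.44, limma adjusted p = 7.41e-04). The call was lost without either GC array and with spike-in scaling. A dim second probe set stood at 0.56 and was not called. Fasn, the synthase itself, read 1498 in GC cells and 2516 in naive cells of PP, and 1585 and 1419 in pLN, and was not called (-0.29).

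Acly, which supplies cytosolic acetyl-CoA, had a brightest probe set, 1439459_x_at, at 7024 in GC cells and 11418 in naive cells of PP, and 6571 and 13524 in pLN, not called (-0.87). Of its other probe sets, 2 were not called and 2 were not tested. A dim one, 1446315_at, was called at 1.26 (limma adjusted p = 0.0488) and turned to -0.12 with dim signals set to the level. That call held in 7 of the 17 alternatives that tested it. By it alone Acly counts below among the genes with only higher calls. Elovl5, an elongase of polyunsaturated fatty acids, was called lower by 1437211_x_at (-1.21 ± 0.46, limma adjusted p = 0.0278), with 5081 in GC cells and 10294 in naive cells of PP, and 4898 and 13042 in pLN. That call was lost without either GC array, without the filter on dim probe sets, and with quantile (-0.59) or cyclic loess normalization (-0.41), and it turned to 0.21 with spike-in scaling. Its other probe set stood at -0.12. The 3 probe sets of Elovl6, which lengthens saturated chains, were not called, between -0.71 and -0.11, although quantile and cyclic loess normalization called the brightest lower (-1.32 and -1.33).

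**Figure D2:**
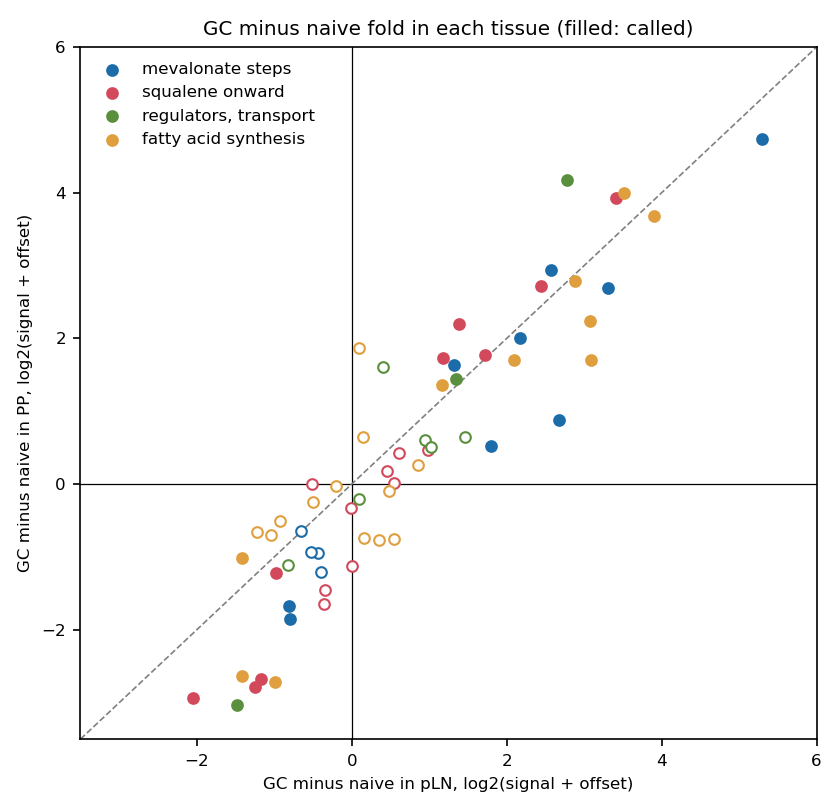
GC minus naive log2 fold of the 62 tested lipid synthesis probe sets in PP (vertical) against pLN (horizontal), coloured by pathway part, filled where called and with the diagonal dashed. In 55 of 62 the sign was the same in both tissues, and the lower calls other than Elovl5 lie below the diagonal, with larger folds in PP.

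The sign of the fold was the same in both tissues for 55 of 62 probe sets, and for 19668 of 23352 probe sets on the whole array. Each tissue sets 1 GC array against 1 naive array, so these counts have no test. In PP, GC cells exceeded naive cells by 2-fold or more in 21 of 62 detected probe sets and fell short by as much in 15, against 39.6% and 19.4% of all detected probe sets. In pLN the counts were 23 and 8 of 64, against 28.7% and 17.4%.

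Different probe sets of 1 gene often gave different folds. Among the 21 genes with several tested probe sets, the range within a gene had a median of 2.13 on the log2 scale and reached 4.68 in Cyp51. In 10 of the 21 genes (47.6%) the probe sets had opposite signs, against 48.2% of 5120 such genes on the whole array. The brightest probe set had the lowest fold in 13 of 21 genes (61.9%), against 59.4% of all such genes, where an arbitrary order would give 42.6% and 40.4%. Both shares are therefore near those of the array. By gene, 11 of 30 had only higher calls (36.7%, against 36.5% of 10306 genes), 7 had only lower calls (23.3%, against 21.3%) and 3 had both (10%, against 5.11%). Only genes with several tested probe sets can have both, and these were 21 of the 30 but 5120 of the 10306, so the last 2 shares are not like for like.

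All 10 lower calls were detected on both GC arrays. Of the 21 higher calls, 8 were under the level on both naive arrays, 5 on 1 and 8 on none. Those under the level on a naive array entered the test only through the GC arrays, where they were bright. The levels were also lower on the GC arrays (57.8 and 29) than on the naive arrays (150 and 62.4). These detection counts are therefore no separate support for the calls. Whether the position of the probes along the transcript accounts for the splits within genes was not tested.

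**Figure D3:**
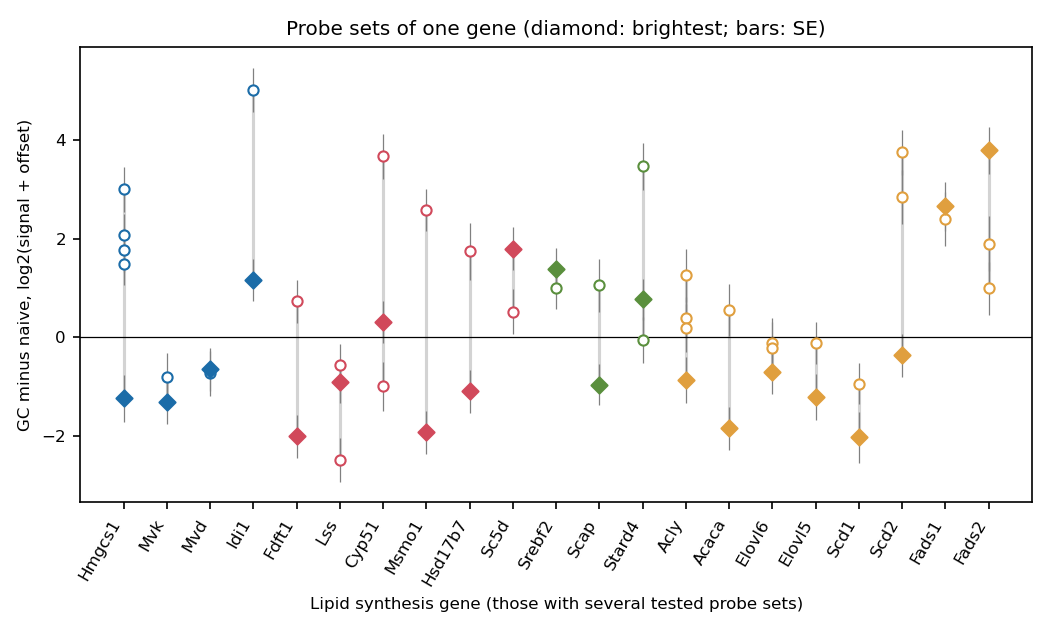
GC minus naive log2 fold (± SE from limma) of each tested probe set in the 21 lipid synthesis genes with several, the diamond marking the brightest probe set. Hmgcs1, Msmo1 and Hsd17b7 have called probe sets on both sides of 0, and the range within Cyp51 is 4.68.

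Other genes of sterol and fatty acid handling were read in the same fit. The counts of these lists stand beside 32.8% higher and 16.3% lower over all probe sets tested. Of 18 tested probe sets for 8 other sterol genes, 7 were higher and 2 lower. Mbtps2, a protease that frees SREBP in the Golgi, read 551 in GC cells and 42.7 in naive cells of PP, and 416 and 35.6 in pLN. Over the 2 tissues that was at least 4.95-fold higher. Ggps1, which makes geranylgeranyl diphosphate, was called at 3.06 (7.91-fold with the dim naive PP signal at the level) and at -2.36, and 2 more probe sets were not called (0.26 and -0.23). Insig2, a second SREBP brake, had 2 probe sets called higher (1.65 and 1.20) and 1 not called (-0.68). Aacs was called at 1.61 by 1456081_a_at, 1.37-fold with naive PP at the level. That call rested on PP (2.99, against 0.22 in pLN), where the naive signal was under the level. The other tested Aacs probe set stood at 0.58, not called.

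Of 16 probe sets of sterol efflux, storage and oxysterol genes, 3 were higher and 5 lower. The higher calls were Abca1 (1.44), Hsd3b7 (1.43, with both naive signals under the level) and Mylip (1.26). The genes with the largest folds, given next, were all called lower. Cyp27a1, a sterol 27-hydroxylase, read 209 in GC cells and 5095 in naive cells of PP, and 594 and 2887 in pLN (-3.39 ± 0.46, limma adjusted p = 1.70e-07). Abcg1, a sterol exporter, was called at -3.19 by its dimmer probe set, with GC PP under the level, and its brighter one stood at -0.78, not called. Npc2, a lysosomal sterol carrier, was called at -2.04 by a dim probe set, while its bright ones stood at -0.57 and 0.35, not called. Lipa, the lysosomal lipase, was called at -1.82 by 1 probe set, while the other tested ones stood at 0.66 and 0.77, not called.

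Of 25 probe sets of further fatty acid genes, 7 were higher and 6 lower. Fabp5, a fatty acid carrier, read 1726 in GC cells and 58.2 in naive cells of PP, and 975 and 54 in pLN. Over the 2 tissues that was at least 13.4-fold higher, and the second Fabp5 probe set stood at 0.95, not called. Acsl4, which activates polyunsaturated fatty acids, was called at 3.71, 9.03-fold with naive PP at the level, and its other tested probe set stood at -0.88, not called. Lpin1 and Gpam, of glycerolipid synthesis, were called at -2.82 and -2.54, and the second Lpin1 probe set stood at -0.67, not called. Of 25 probe sets of fatty acid oxidation genes, 7 were higher and 7 lower (median log2 fold -0.23). Acaa2 was called at -2.85 by 1 probe set and at 2.59 by another, whose naive signals were both under the level, so that GC cells were at least 2.49-fold higher by it, and the remaining one stood at -0.23. Eci1 fell by 2.22. Hadh was called at -1.23 by 1 probe set and at 2.04 by 1460184_at, which read 1391 in GC cells and 67.2 in naive cells of PP, but 1021 and 1049 in pLN. That higher call thus rested on PP (4.12, against -0.04 in pLN), where the naive signal was under the level. Hadhb was called at 2.03 and 1.29, with another probe set at -0.83, not called.

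Markers of other cell types were read beside these genes. Of 13 macrophage marker probe sets, 6 and 7 were detected on GC PP and GC pLN, and 4 and 5 on naive PP and naive pLN. Their summed signals were 4757 and 3464 in GC cells of PP and pLN, against 1701 and 1387 in naive cells, and Apoe made up most of the GC sums (3561 and 2528). Lyz2 read 369 and 244 in GC cells of PP and pLN, against 50.3 and 42.3 in naive cells, and was called higher (2.40). Cd68 read 321 and 346, against 89 (under the level) and 259, and was not called (1.06). Csf1r, Adgre1 and Mertk had at most 61.3 on the GC arrays and 323 on the naive arrays. C1qb went the other way, at 115 and 89.9 in GC cells of PP and pLN, against 272 and 165 in naive cells (1437726_x_at). By 1434366_x_at it read 145 and 82, against 227 and 111, and neither was called (-0.97 and -0.49). The remaining C1qb probe set, C1qa and C1qc were under the level on all 4 arrays. The 9 gut epithelium probe sets summed to 1974 in GC cells and 3268 in naive cells of PP, and to 678 and 1444 in pLN. T cell markers summed to 1475 and 1013 in GC cells, against 818 and 1264 in naive cells, and stromal and fat markers to 1437 and 365, against 2975 and 878. Their part in the lipid gene values was not tested.

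The second comparison set PP against pLN within each cell type, again 1 array against 1 array and without a test. In GC cells the lipid genes were nearly level. Of 64 probe sets detected on either array, 1 exceeded 2-fold upward in PP and 1 downward, against 4.62% and 1.87% of all detected probe sets. These were the dim Fads2 probe set 1449325_at (151 in PP and 59.9 in pLN) and the dim Sc5d probe set 1424709_at (1.9 in PP and 35.1 in pLN). The Sc5d signal in PP lay under the GC PP level of 57.8, so no fold could be measured there. All 3 Scd2 probe sets were lower in PP, by log2 differences of -0.83, -0.89 and -0.77, with 2175 in PP and 3882 in pLN for the brightest.

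In naive cells the spread was wider. Of 52 detected probe sets, 11 had at least 2 times the pLN signal in PP (21.2%) and 6 lay as far below (11.5%), against 7.74% and 18% of all detected probe sets, where the median log2 difference was -0.18. The 11 belonged to Hmgcs1, Mvk, Fdft1, Lss (3 probe sets), Cyp51, Msmo1, Srebf1, Acaca and Scd1. Srebf1 read 10140 in PP and 3243 in pLN, and Acaca 3318 in PP and 1057 in pLN. Msmo1 read 5838 in PP and 1663 in pLN by 1459627_at. The 3' to 5' ratios moved with tissue as well, at 96.4 on naive PP and 18.7 on naive pLN for Gapdh, and 67.2 and 12.2 for Actb. The spike-in median was also higher on naive PP (15677) than on naive pLN (7500), and the part of either in these differences was not tested. Scaled to the spike-ins, 0 probe sets were 2-fold higher in PP and 23 lower, and with no rescaling of the deposited values 4 were higher and 10 lower.

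The 6 lower probe sets belonged to Scd2 (2 probe sets), Scd1, Srebf2, Stard4 and Fads2. For Scd2 1415823_at, Stard4 1429240_at and Fads2 1443838_x_at the PP signals of 28.9, 16.2 and 21.1 lay under the naive PP level of 150. Their pLN signals were 96.5, 108 and 155, so no fold could be measured with PP at the level. The probe sets of Scd1 pointed both ways, with 53139 in PP and 26008 in pLN by 1415964_at but 1117 in PP and 2342 in pLN by 1415965_at. Scd2 read 2584 in PP and 5499 in pLN by its brightest probe set, and by that probe set it was thus lower in PP in both cell types.

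**Figure D4:**
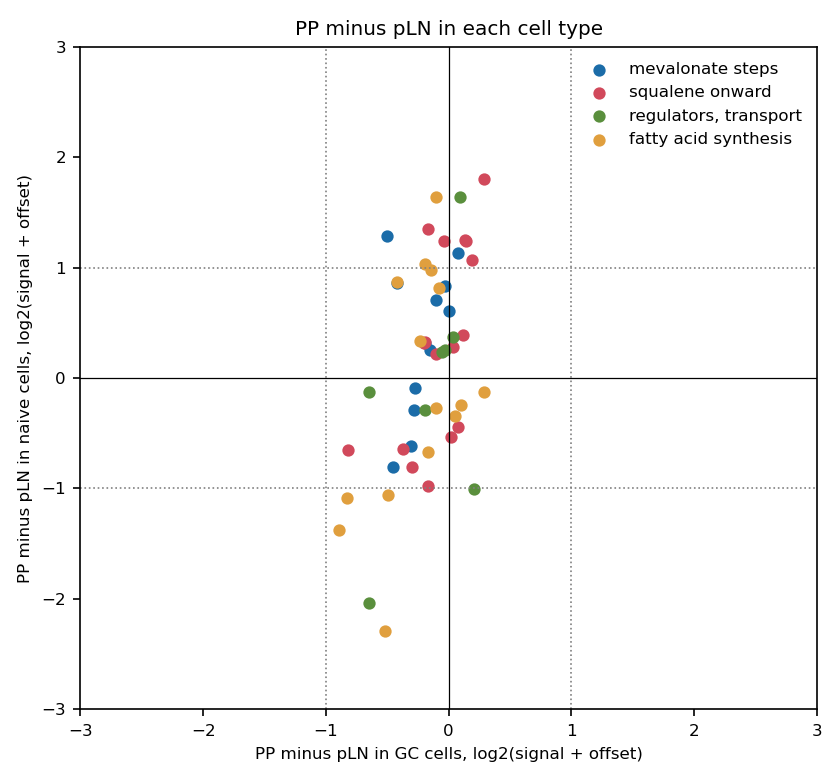
PP minus pLN log2 difference in naive cells (vertical) against GC cells (horizontal) for the 52 lipid synthesis probe sets detected on at least 1 array of each cell type, with dotted lines at 2-fold. The points spread vertically, with naive differences from -2.29 (Fads2) to 1.80 (Msmo1), while GC differences run from -0.89 (Scd2) to 0.29 (Elovl6). The naive PP signal of that Fads2 probe set lay under the detection level.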

How the data were processed

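RNA of 4 sorted B cell pools, 1 per group, was labelled as biotinylated cRNA and hybridised to 1 array each. GCOS made the signals, per the submitters' processing notes; the sources used here do not give its version, algorithm or scaling. The deposited intensities are linear and have a median of 1 on every array, as the values show. Trimmed means (2% at each end) lay between 7.35 and 10, and all were brought to 500. The offset, 13.3, was the median signal of 67 probe sets (44 genes) of other tissues, and the detection level their 90th percentile per array.

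In the platform annotation 34958 probe sets had 1 symbol, 932 several and 9211 none listed. All 70 lipid probe sets matched the RefSeq table, which changed 0 of their symbols. Promoters are from RefSeq (GRCm38.p6). The 64 control probe sets stayed out of tests, and 0 columns were unused.

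For GC against naive cells, limma 3.58.1 in R 4.3.3 was fitted with the tissue blocked and a trend on intensity. P-values were adjusted by Benjamini-Hochberg over the 23352 probe sets detected in both tissues in GC cells, naive cells or both. The prior had 37.6 degrees of freedom. Ratios given as "at least" set naive signals under the level to the level. The fit code was run on simulated arrays with independent errors and known folds in few probe sets. Those arrays held no 3' bias, so the run cannot show how such a bias affects the calls. Every lipid gene is named, with signals for called genes by the brightest probe set and by any called the other way. Other lists give counts and up to 4 called genes by size of fold, and the sterol efflux list also its higher calls. The members and lists were chosen with earlier results of these data known. With so few arrays, precision is limited throughout. Alternatives covered scaling, offset, level, filter, probe set choice, block, trend, fold and each array left out.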

Additional observations from a re-analysis of the deposited data

Results flagged for a closer look

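In 7 of the 62 tested probe sets the GC and naive fold had opposite signs in the 2 tissues, and the difference between tissues was not tested, since each tissue has 1 array per cell type. None of these probe sets was called over both tissues. The log2 fold was -1.12 in PP and 0.01 in pLN for Lss (1420014_at), -0.74 in PP and 0.16 in pLN for Fasn, and -0.77 in PP and 0.35 in pLN for Elovl6 (1417403_at). A second Elovl6 probe set (1442656_at) gave -0.75 in PP and 0.54 in pLN. The gaps were smaller for Stard4 (1429239_a_at), at -0.20 in PP and 0.10 in pLN, and for Acly (1425326_at), at -0.09 in PP and 0.48 in pLN. Ebp stood at 0.00 in PP, just above 0, and at -0.51 in pLN.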

How the results depend on the processing

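Of the 21 higher calls, 9 kept their call in every alternative that tested them, and of the 10 lower calls 0 did. These counts are not like for like. Spike-in scaling moved the median over all probe sets up from 0.42, a shift toward higher calls and away from lower ones. The filter on all 4 arrays did not test higher calls with a naive signal under the level. With spike-in scaling the median log2 fold became 1.71 for lipid probe sets and 1.73 for all, lower calls fell to 0 and 126, and Mvk 1418052_at, Hmgcs1 1433443_a_at, Elovl5 1437211_x_at and Hsd17b7 1457248_x_at turned to 0.05, 0.19, 0.21 and 0.29. Counts at 2-fold were then 45 higher and 2 lower in PP, 36 and 1 in pLN, and 0 and 23 for naive PP over pLN. With signals under the level set to it, the medians were -0.11 and 0.08, and Acly 1446315_at, Hsd17b7 1448865_at and Fads2 1449325_at turned to -0.12, -0.81 and -0.02. Quantile normalization gave 16 lower calls and a median of 0.13 over all probe sets, which without a filter was -0.14. Among probe sets above the level on all 4 arrays, 9 lipid probe sets and 3163 in all were higher, with medians of -0.29 and -0.15, and a level of 200 (chosen after seeing the data) gave a lipid median of -0.12. The brightest probe set per gene gave 7 higher lipid calls with a median of -0.51, and 2407 higher and 2294 lower genes with a median of -0.00. Gene means gave 11 higher and 4 lower lipid genes, and 3228 and 1916 in all; these settings test fewer features. With spike-in scaling all 10 lower calls were thus lost, 6 with a weaker fold and the 4 named above with a turned one. Of the 62 probe sets, 6 lost their call with quantile normalization, and 9 each gained one with quantile and cyclic loess normalization. Leaving out 1 array gave 10 to 22 higher and 1 to 18 lower lipid calls, and 2298 to 9411 higher and 724 to 5339 lower in all.

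PP over pLN counts rest on few probe sets. In GC cells the count higher was 0 as deposited, under quantile and loess normalization, 4 times the offset, 3-fold, the level of 200 and the all-array filter, and 2 with 0.25 times the offset. The count lower was 5 as deposited, 2 by quantile, and 0 with 4 times the offset, dim signals at the level, the level of 200 or the all-array filter. In naive cells the counts were 4 higher and 10 lower as deposited, 3 and 2 at 3-fold, 17 higher with no filter, and 3 lower with dim signals at the level, the level of 200 or the all-array filter. Within tissues, 3-fold left 9 lower in PP and 1 in pLN, and the all-array filter left 7 higher in PP and 9 in pLN. Dropping the tissue block or the trend moved no count by over 1.5 times. Apart from the values above and the construction of each setting, the cause was not tested.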
